A study of Homo sapiens with 3 samples.

Results

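MicroRNA genes with known roles in vessels, together with the neuronal MIR124-1 and the genes that host them, were examined for accessible chromatin in hCMEC/D3, a human brain endothelial cell line. The members were 10 genes named by symbol: MIR126, MIR17HG, MIR21, MIR10A, MIR10B, MIR143, MIR145, MIR155, MIR221 and MIR124-1. All 10 were found in the RefSeq gene table of GRCh38.p14, where 59679 genes, among them 1913 microRNA genes, lay on a chromosome with peaks. MIR17HG is a long noncoding host gene that carries a cluster of 6 microRNAs, and the other 9 members are single hairpins. Per the labels, immortalized cells were grown to confluence on plates coated with rat-tail collagen. The series held 3 libraries, RNA replicates 1 and 2 and ATAC replicate 2, with no treatment and no second cell type. The values below come from the ATAC library. The RNA tables list Ensembl transcripts that no table here pairs with genes, so they were not used here.

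A microRNA is cut from a hairpin in a longer primary transcript, first in the nucleus by DROSHA with DGCR8 and then in the cytoplasm by DICER1. The mature strand, loaded into an AGO protein, pairs with messenger RNAs mainly through its seed, and repression follows. MIR126, inside EGFL7, is known as the microRNA most typical of endothelium, while MIR143 and MIR145 are known from smooth muscle and MIR124-1 from neurons. ATAC-seq marks DNA that the Tn5 transposase can reach. It reads the accessibility of a locus, not the amount of mature microRNA.

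The mature sequences show which members can share targets. Bases 2 to 8, the seed, are in capitals, 5′ to 3′, and the sequences are RefSeq's with build GRCh38.p14. Of the 17 members and cluster mates, 15 matched the sequence table with 27 mature strands and 23 seeds. The strands of the endothelial and inflammatory hairpins each had a seed of their own among these.
miR-126-3p: uCGUACCGugaguaauaaugcg
miR-126-5p: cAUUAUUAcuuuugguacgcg
miR-21-5p: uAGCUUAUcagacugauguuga
miR-155-5p: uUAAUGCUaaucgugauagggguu
The 2 hairpins of the CARMN locus also differed in seed, although they lie side by side.
miR-143-3p: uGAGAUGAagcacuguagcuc
miR-145-5p: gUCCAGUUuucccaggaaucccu
In the MIR17HG cluster, miR-17-5p and miR-20a-5p had the same seed, and so had miR-19a-3p and miR-19b-3p. The seeds of miR-18a-5p and miR-92a-3p differed from both.
miR-17-5p: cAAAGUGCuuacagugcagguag
miR-20a-5p: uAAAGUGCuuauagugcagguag
miR-18a-5p: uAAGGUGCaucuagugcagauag
miR-19a-3p: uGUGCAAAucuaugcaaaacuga
miR-19b-3p: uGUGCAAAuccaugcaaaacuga
miR-92a-3p: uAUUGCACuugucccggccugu
MIR221 and its neighbour MIR222 gave 3p strands with an identical seed.
miR-221-3p: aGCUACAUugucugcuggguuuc
miR-222-3p: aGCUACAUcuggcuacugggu
The 3p strands of MIR10A and MIR10B had different seeds, AAAUUCG and CAGAUUC. Below they are shown by opposite arms, so the seeds printed there are not to be compared. The sequence table has no entry for miR-10b-5p. The seeds of the 5p strands could therefore not be compared and may be shared, so the 3p seeds do not settle whether this pair can share targets. MIR124-1 has no entry either.
miR-10a-5p: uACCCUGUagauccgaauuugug
miR-10b-3p: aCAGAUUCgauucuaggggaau

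Accessible regions lay within 20 kb of 9 of the 10 members. The exception was MIR124-1. A broad peak was assigned to a member when it shared at least 1 bp with the gene or the 20 kb on either side. The background was high, since 77.5% of all 1913 microRNA genes had such a peak. A count of 9 of 10 is near that background. In all, 39 distinct peaks fell in the windows, and MIR143 and MIR145 share 8 of them. MIR21 and MIR145 had 9 each, MIR143 had 8, MIR221 had 7 and MIR126 had 6. MIR155 had 3, MIR10A and MIR10B had 2 each, and MIR17HG had 1. Over all microRNA genes the median was 2 (quartiles 1 and 4), and 9 or more were found for 2.46% of them. With 1 library there is no replicate error, so these counts describe the library and carry no test.

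**Figure D1:**
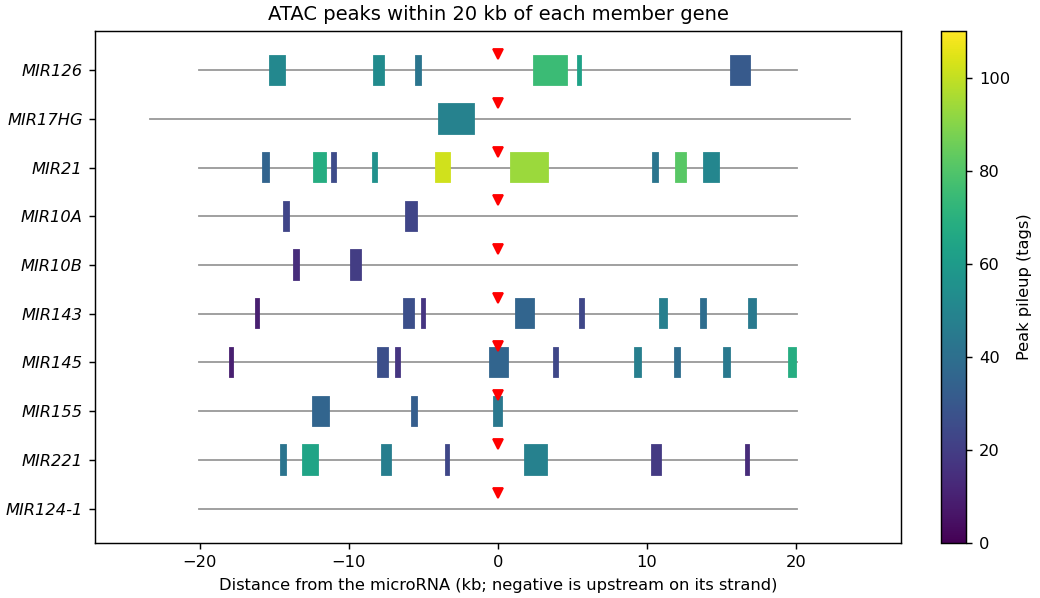
Each row is one member, and the x axis is the distance in kb from the microRNA (red triangle; for MIR17HG the middle of its cluster), with upstream to the left except for MIR124-1, whose strand was not taken. Boxes are peaks drawn to scale and coloured by pileup in tags, and grey lines are the windows. Only the boxes of MIR145 and MIR155 cover the hairpin, the brightest boxes flank MIR21, and the row of MIR124-1 is empty.

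A peak covered the member gene itself in 3 cases, MIR17HG, MIR145 and MIR155. Among the 9 hairpins it was 2, beside 10.7% of all microRNA genes. For a long noncoding gene such as MIR17HG the comparable share was 47.1%. The nearest peak lay at a median of 1468 bp from the microRNA over the members, compared with 4252 bp (quartiles 1160 and 16134) over all microRNA genes. For MIR17HG the distance is that of its hairpin nearest to the peak, MIR17. The farthest, MIR92A1, lay at 1916 bp. The order from near to far was MIR145 and MIR155 at 0, MIR21 at 869 bp, MIR143 at 1138 bp, MIR17HG at 1207 bp, MIR221 at 1730 bp and MIR126 at 2342 bp. MIR10A followed at 5376 bp, MIR10B at 9147 bp and MIR124-1 at 72145 bp.

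**Figure D2:**
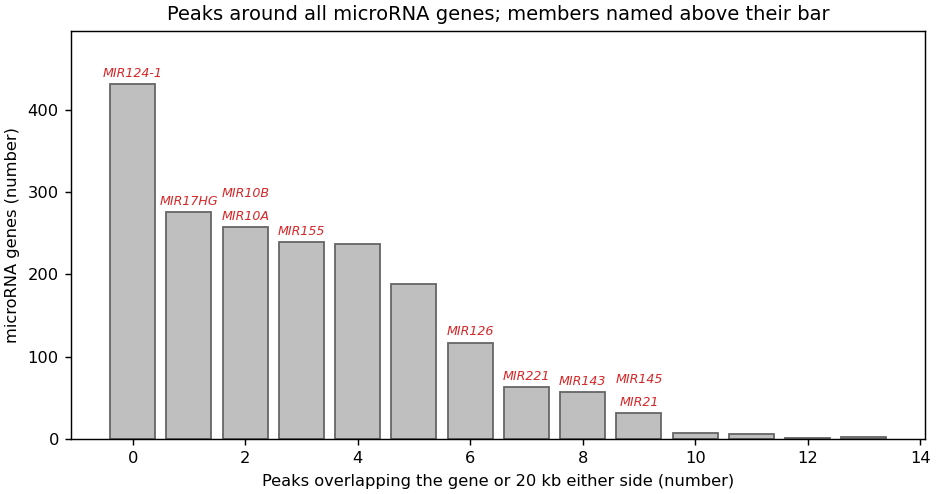
Bars count microRNA genes (y axis) by the number of peaks within 20 kb (x axis), and members are named above the bar of their own number. MIR17HG is a host gene and is not counted in the bars. MIR21 and MIR145 stand at 9 peaks and MIR124-1 at 0, among 431 microRNA genes without any.

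MIR126 lies at chr9:136670602-136670686 on the plus strand, inside EGFL7, which encodes a secreted endothelial protein. No peak covered the hairpin. The nearest peaks were 5130 bp upstream and 2342 bp downstream, so the hairpin sat in a stretch without a called peak. The downstream peak, chr9:136673028-136675272, was the widest of the locus at 2245 bp and had a pileup of 75.02 tags, the mean number of extended tags stacked over the peak. It began past the annotated end of EGFL7 and overlapped AGPAT2, a lipid synthesis gene on the opposite strand. A second AGPAT2 peak of 220 bp had 63.35 tags. These 2 peaks stood at the 97.9th and 94.9th percentile of pileup among all 106415 peaks of the library.

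Within EGFL7 there were 2 peaks, of 52.6 tags and 671 bp at chr9:136662356-136663026 and of 42.7 tags and 305 bp farther in. The first covers the second of 2 annotated EGFL7 starts, described with its sequence below. The remaining peaks were one of 51.36 tags in the antisense gene LNCEGFL7OS, 14255 bp upstream, and one of 30.67 tags reaching the start of AGPAT2, 15561 bp downstream. Fold, which divides pileup by a local background from the same library, was low here despite the high pileup. It was 1.87 for the widest peak and 1.71 for the 305 bp peak, and the background derived from it reached 39.7 tags against a median of 3.32 over all peaks. With a fold of at least 4 required, 1 of the 6 peaks remained, the one in LNCEGFL7OS.

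MIR21, known for induction under growth and inflammatory signals, lies at chr17:59841266-59841337 on the plus strand at the end of VMP1, an autophagy gene. It is known to be transcribed from a start of its own within VMP1. The peak of highest pileup over all members, 102.23 tags at chr17:59837169-59838078, lay 3188 bp upstream of the hairpin and stood at the 99.8th percentile. A peak of 93.4 tags and 2444 bp, chr17:59842206-59844649, began 869 bp downstream and overlapped the last bases of VMP1. It was the widest of the 39. The hairpin thus lay between the 2 peaks of highest pileup among all members.

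The other 4 upstream peaks of MIR21, all within VMP1, had 34.9, 67.92, 25 and 55.25 tags from far to near. The 3 downstream peaks beyond 10 kb had 42.96, 81.6 and 50.38 tags and overlapped no annotated gene. Peaks covered 7042 bp of the MIR21 window, or 17.6%, the highest share among the members. The median over all microRNA genes was 1453 bp (quartiles 281 and 2891 bp). Folds ran from 1.79 to 4.83 and 3 of the 9 peaks reached 4.

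MIR17HG, known as a proto-oncogenic host gene under MYC control, spans chr13:91347687-91354577 on the plus strand. Its single peak, chr13:91347019-91349398, covered the annotated start, was 2380 bp wide and had 48.15 tags. In width it stood at the 99.8th percentile of all peaks. The 6 hairpins lay downstream of it at 1207 bp for MIR17, 1353 bp for MIR18A, 1493 bp for MIR19A, 1667 bp for MIR20A, 1794 bp for MIR19B1 and 1916 bp for MIR92A1. None of them was covered. Apart from this peak the window was empty, and the fold of the peak was 3.94, so a filter at 4 left MIR17HG with 0 peaks.

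MIR143 and MIR145 lie 1 after the other at chr5:149428918-149429023 and chr5:149430646-149430733, on the plus strand in CARMN, a noncoding gene known from smooth muscle. A peak of 1225 bp and 35.31 tags, chr5:149430161-149431385, covered MIR145 and lay 1138 bp past MIR143. The 3 other peaks in CARMN were upstream of both hairpins, with 9.35, 26.35 and 16.92 tags. The lowest of these was at the 2.59th percentile of pileup, close to the lowest value in the list, 8.0 tags. Downstream, outside any annotated gene, pileup was higher than at the peaks in CARMN, except at the nearest peak. The 5 peaks there had 23.54, 46.96, 38.71, 44.48 and 68.21 tags, and the last fell only in the window of MIR145. The peak of 46.96 tags, 9132 bp past MIR145, had a fold of 7.28. The annotated start of CARMN carried no peak, the nearest being 2388 bp away.

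MIR155, known from activated immune and endothelial cells, lies at chr21:25573980-25574044 on the plus strand near the end of MIR155HG. All 3 peaks were in this host gene. One of 44.05 tags and 525 bp, chr21:25573752-25574276, covered the hairpin. One of 32.36 tags lay 5370 bp upstream, and one of 35.42 tags and 1088 bp, 11306 bp upstream, covered the annotated start of MIR155HG. Folds were 7.93 at the hairpin, 7.08 and 4.85, so MIR155 kept all 3 peaks with a fold of at least 4. The fold at the hairpin was the highest among the 39 and stood at the 94.7th percentile of the library. Pileup over the hairpin was not unusual, since 98 of the 205 microRNA genes covered by a peak had more and their median was 43.8 tags.

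MIR221, with MIR222 a regulator of endothelial growth through KIT and the cell cycle inhibitor CDKN1B, lies at chrX:45746157-45746266 on the minus strand, in MIR222HG. Neither hairpin was covered, with the nearest peak at 1730 bp for MIR221 and 2366 bp for MIR222. The peak nearest MIR221, chrX:45742916-45744427, lay downstream of both and outside the host gene, with 1512 bp and 48.03 tags. The one nearest MIR222 was another, upstream of both hairpins and inside MIR222HG, with 203 bp and 23.5 tags. Upstream, 4 peaks inside MIR222HG had 23.5, 46.42, 64.22 and 42.36 tags from near to far. The 2 far downstream peaks, with 18.72 and 13.71 tags, overlapped no gene and sat at the lowest background the caller allows, 2.37 tags. The start of the host gene lies outside the window and is described below.

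Among the members with a peak, MIR10A and MIR10B had the smallest share of the window covered. MIR10A lies at chr17:48579838-48579947 on the minus strand, within the annotated extent of HOXB3, and MIR10B at chr2:176150303-176150412 on the plus strand, next to HOXD4. HOXB and HOXD genes are known to give cells their position along the body axis. MIR10A had a peak of 22.65 tags and 762 bp in HOXB3, 5376 bp upstream, and one of 22.43 tags in HOXB-AS3, 13953 bp upstream. MIR10B had one of 19.51 tags and 646 bp, 9147 bp upstream and outside any gene, and one of 14.16 tags at HOXD-AS2 and LOC401021. Peaks covered 2.71% and 2.5% of the windows. All 4 peaks were upstream, and no peak overlapped HOXB4, HOXD4 or HOXD3.

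MIR124-1, the neuronal member on chromosome 8, had no peak within 20 kb, and none within 50 kb. Its host MIR124-1HG had none either. With the lowest pileup in the list at 8.0 tags, this means that no region passed the caller at this depth and with its settings. Of the paralogs that yield the same mature microRNA, MIR124-2 also had 0 peaks, whereas MIR124-3 had 5, the nearest at 848 bp and the highest of 27.56 tags. Among all microRNA genes 431 were without a peak in the window.

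Member peaks differed among loci in pileup and in background. The 39 peaks had a median pileup of 42.7 tags (quartiles 24.3 and 51.98), compared with 21.6 over all peaks, and 33 of them were above that value. Their median width was 525 bp beside 452 bp. Their median fold was 3.94 beside 4.49, with a median background of 10.1 tags beside 3.32. Only 3 of the 39 sat at the background floor, compared with 34.7% of all peaks. That floor follows from the genome size given to the caller, the mouse preset, so the folds at the floor and the comparison of median folds depend on it. The median pileup per locus ran from 16.8 tags at MIR10B and 22.5 at MIR10A through 35.4 at MIR155 and 42.4 at MIR221 to 52 at MIR126 and 55.2 at MIR21. The median background followed the same ends, from 2.99 tags at MIR10A and 3.01 at MIR10B to 16.2 at MIR21 and 20.9 at MIR126. Fold put these ends in the opposite order, with medians of 5.9 at MIR10A and 4.54 at MIR10B but 2.98 at MIR21 and 2.39 at MIR126. The highest median fold was 7.08 at MIR155, whose pileup lay between those ends. The background is drawn from the 10000 bp around each peak, so neighbouring peaks enter it.

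**Figure D3:**
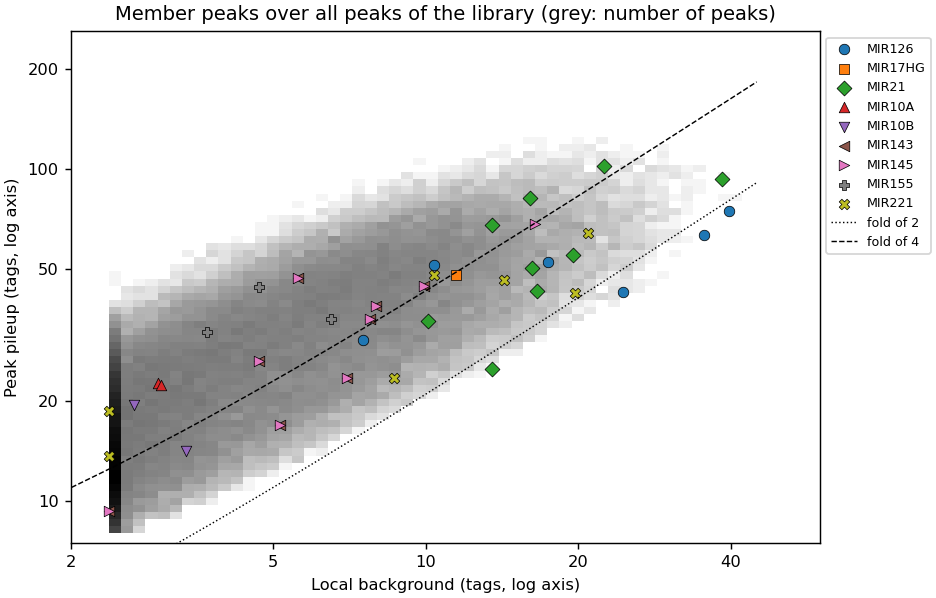
Each symbol is a member peak, with local background (x axis, tags) and pileup (y axis, tags) on log axes, over the density of all 106415 peaks in grey; lines mark a fold of 2 and of 4. Peaks of MIR143 lie under those of MIR145, which shares them. MIR126 reaches the highest background, 39.7 tags, and MIR155 lies above the line of 4-fold.

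Host gene starts were then examined in RefSeq windows of 250 bases before to 50 after the start. Of the 10 host and neighbour genes, 7 had such a window, and a peak overlapped one in 5 of 8 genes when MIR17HG is added: EGFL7, VMP1, MIR17HG, MIR155HG and MIR222HG. CARMN, HOXD4 and HOXD3 had none, the nearest peaks being 2388, 10144 and 15901 bp away. Over all genes, 51.9% of windows had a peak, and over long noncoding genes 29.8%. These shares count single windows, whereas 5 of 8 counts genes with a peak in any window, so they are not like measures. EGFL7 has 2 annotated starts. The distal one was 2259 bp from the nearest peak, and the one closer to MIR126 was covered over its whole window. VMP1 had the highest pileup of these, 72.8 tags with a fold of 6.23. MIR222HG had 58.97 tags over its start with a fold of 3.1.

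Promoter sequences are shown because these are the starts that carried a peak. They are from RefSeq, GRCh38.p14, on the strand of the gene, 5′ to 3′. For protein-coding genes only the 250 bases before the start were searched and are given, while the shares below are over whole windows of 300 bases. Capitals mark matches, on either strand, to 8 motifs: CCGGAAGT and CAGGAAGT for ETS factors, TGANTCA for the AP-1 dimer, CACGTG for the MYC protein, AGATAA for the GATA factors, CCACCC for the KLF family, and the usual forms of the NF-kappaB site and the CArG box. A match is a description of letters. Matches of different motifs did not overlap each other in the sequences shown.

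The window of the covered EGFL7 start, chr9:136662666-136662915, plus strand, held CAGGAAGT 82 bases before the start. ETS factors such as ERG and ETS1 are known regulators of endothelial genes. CCACCC occurred there 187 and 144 bases before the start. CAGGAAGT was found in 3.08% of all 35116 promoter windows and in 3.31% of those with a peak, and CCACCC in 34.3% and 38.4%.
EGFL7: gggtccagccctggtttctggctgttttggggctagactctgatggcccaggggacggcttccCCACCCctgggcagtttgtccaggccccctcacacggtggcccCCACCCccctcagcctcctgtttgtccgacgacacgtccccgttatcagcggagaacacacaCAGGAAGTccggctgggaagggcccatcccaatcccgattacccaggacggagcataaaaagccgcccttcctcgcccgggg

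The VMP1 window, chr17:59707404-59707653, plus strand, held the other ETS motif, CCGGAAGT, 17 bases before the start. This motif was in 4.14% of all windows and 7.38% of those with a peak.
VMP1: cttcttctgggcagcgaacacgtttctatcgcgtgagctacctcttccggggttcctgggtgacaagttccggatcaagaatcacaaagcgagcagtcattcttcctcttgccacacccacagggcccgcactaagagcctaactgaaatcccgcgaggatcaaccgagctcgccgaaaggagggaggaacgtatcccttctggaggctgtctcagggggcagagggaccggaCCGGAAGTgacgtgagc

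At MIR155HG, chr21:25561895-25562194, plus strand, the only match was an AP-1 site, TGAGTCA, 60 bases before the start. AP-1 is known to act on this gene in activated lymphocytes. The motif was in 7.71% of all windows and 6.15% of those with a peak.
MIR155HG: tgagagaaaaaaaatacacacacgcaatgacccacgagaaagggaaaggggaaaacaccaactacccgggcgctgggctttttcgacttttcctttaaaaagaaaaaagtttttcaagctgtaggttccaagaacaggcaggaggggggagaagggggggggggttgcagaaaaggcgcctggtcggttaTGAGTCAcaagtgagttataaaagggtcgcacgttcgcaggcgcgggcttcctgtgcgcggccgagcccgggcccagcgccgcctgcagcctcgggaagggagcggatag

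MIR222HG, chrX:45770218-45770517, minus strand, held 1 match to the NF-kappaB motif, 235 bases before the start. This motif was in 11.3% of all windows and 14% of those with a peak.
MIR222HG: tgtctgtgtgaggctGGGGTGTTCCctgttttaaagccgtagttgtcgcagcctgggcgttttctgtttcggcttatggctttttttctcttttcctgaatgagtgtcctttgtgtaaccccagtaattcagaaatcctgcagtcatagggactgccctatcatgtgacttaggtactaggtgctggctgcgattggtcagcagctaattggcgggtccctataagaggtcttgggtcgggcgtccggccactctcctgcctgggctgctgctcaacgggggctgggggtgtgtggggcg

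MIR17HG, chr13:91347437-91347736, plus strand, held none of the 8 motifs in these letters. Of the 5 sequences shown it was the richest in G and C, at 73% with 42 CpG, compared with a median of 65.7% and 26 CpG over windows with a peak.
MIR17HG: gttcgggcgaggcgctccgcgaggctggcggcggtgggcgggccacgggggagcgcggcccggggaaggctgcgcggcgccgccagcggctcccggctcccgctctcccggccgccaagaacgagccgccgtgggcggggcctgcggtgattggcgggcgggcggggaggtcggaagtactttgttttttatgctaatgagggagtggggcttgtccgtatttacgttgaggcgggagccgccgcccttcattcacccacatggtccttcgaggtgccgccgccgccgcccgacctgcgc

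Other microRNA genes were read in the same way. Of 27 further microRNA genes described in vessels, 24 (88.9%) had a peak within 20 kb, with a median of 4 peaks. Over all microRNA genes the share was 77.5% and the median 2. MIR100 led with 10, followed by the neighbours MIR23A, MIR27A and MIR24-2 with the same 9 peaks in their windows and the nearest at 154 bp from MIR23A. MIR99A, MIR181A1 and MIR181B1 had none, with the nearest peaks at 208426, 22014 and 22185 bp. A peak covered 3 of these hairpins, MIR132, MIRLET7A2 and MIR210, with 32.47, 14.17 and 62.56 tags. That is 11.1%, near the 10.7% of all microRNA genes. MIR210 is known as the microRNA induced by hypoxia.

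Of 30 microRNA genes known from muscle, liver, neurons, blood, epithelium or stem cells, 26 (86.7%) had a peak within 20 kb, with a median of 2.5. The share over all microRNA genes was 77.5%. Genes of these lists that lie side by side share peaks, so the shares are a description and were not compared by a test. MIR137, MIR141 and MIR200C had 8 peaks each, while MIR184, MIR194-1, MIR203A and MIR223 had none. The nearest peaks to these 4 lay at 25090, 23454, 20002 and 32372 bp, that of MIR203A just outside the window. A peak covered MIR9-2, MIR137, MIR138-1 and MIR150, or 13.3%, near the 10.7% of all microRNA genes. The covered hairpins of both lists were named after their values were seen. Of the other paralogs, MIR106B, MIR93 and MIR25 had 5 peaks in their windows, whereas MIR106A and MIR92A2 had 0.

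**Figure D4:**
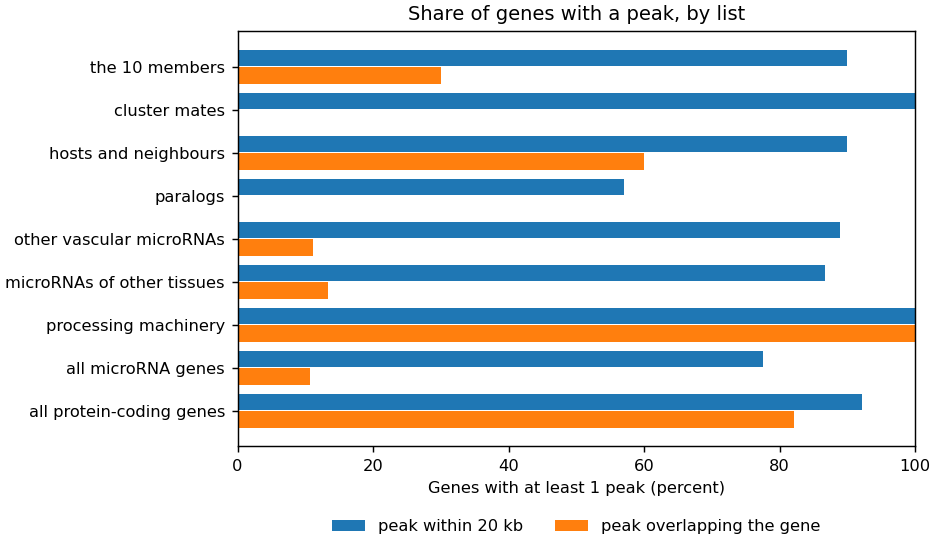
Bars give the percent of genes in each list with a peak within 20 kb (blue) or over the gene (orange). All microRNA genes stand at 77.5% and 10.7%, and protein-coding genes, which are longer, at 92.2% and 82.1%.

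Every listed gene of the microRNA pathway carried a peak. All 14 had a peak over the gene, beside 82.1% of protein-coding genes, and within 20 kb, beside 92.2%. All 13 with a promoter window had a peak in at least 1. The share of 51.9% over all genes is not a like measure. It counts single windows and includes those of long noncoding genes, at 29.8%. DICER1 had a peak in 3 of 5 windows and TNRC6C in 2 of 4. In the nuclear step, the highest peak over DROSHA had 60.54 tags and that over its partner DGCR8 55.95 tags. The exporter XPO5 had 58.99 tags and its cofactor RAN 50.17. DICER1 had 49.45 tags, and its partners TARBP2 and PRKRA 112.46 and 86.1. Of the AGO genes, AGO2 had 77.1 tags, AGO1 and AGO3, which share a peak, 54.33, and AGO4 20.66, the lowest of the 14. The silencing scaffolds TNRC6A, TNRC6B and TNRC6C had 70.3, 100.74 and 61.36 tags.

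Markers of several cell types were read beside the label. Every one of 10 endothelial markers was overlapped by a peak, with 29 peaks in the window of ERG, 27 at VWF and 23 at PECAM1. A peak also overlapped 7 of 8 mural markers, 6 of 8 neuronal markers and 5 of 8 blood cell markers. The share over all protein-coding genes was 82.1%, so most genes of any list would have a peak. Within 20 kb, CSPG4 had 16 peaks, MYH11 15 and PDGFRB 12 among the mural genes. SYT1 had 25, RBFOX3 19 and MAP2 18 among the neuronal ones, where DCX had 0. PTPRC had 12, CD79A 7 and SPI1 6 among the blood cell genes, and none of the 7 overlapped CD79A itself. Of the genes with a promoter window, a peak lay in one for 5 of 5 endothelial, 4 of 6 mural, 4 of 5 neuronal and 1 of 4 blood cell markers. Over all genes, 51.9% of single windows had a peak. Counts of peaks over a gene grow with its length, and the lists are short, so these values are given as a description. Whether cells of another type added to the peaks at MIR143 and MIR145 was not tested.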

How the data were processed

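The authors called broad peaks on 1 ATAC-seq library of hCMEC/D3 with MACS 2.2.7.1, without a control, per the file headers: each tag was moved by -100 bp and lengthened to 200 bp, the q limits were 0.05 (strong) and 0.1 (broad), and reads were taken as single-end although the labels give paired ends. The header gives 31532245 tags, of which 22188172 remained with 1 allowed per position. The genome was entered as 1870000000 bp, the mouse preset of MACS. Bowtie2, SAMtools 1.13, Picard and MACS2 are named in the submitters' processing notes, with the builds GRCh38 and mm10; GRCh38 was taken for this human line. The deposited values are the pileup signal (not scaled to depth), the fold ratio, and −log10 p-value and −log10 q-value per peak; as MACS gives them, those of a broad peak are averages over it. They were used only to describe and filter peaks in this list.

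Peak overlap with genes of GRCh38.p14 was computed here with Python 3.11.15 and pandas 2.3.3, after a check of the functions on simulated intervals. As a check of the build, 51.9% of 35116 promoter windows had a peak, against 5.23% and 5.31% after moving the windows by 10 kb either way. The gene table gives gene extents, not exons. Background was derived as (pileup + 1) / fold − 1, which put 36977 peaks within 0.01 tags of the floor of 2.37 that the header's genome size sets. LINC00599 matched under its present symbol, MIR124-1HG. The members, gene lists and motifs were chosen with earlier results of these data known. Named are all members, their hosts and cluster mates and the processing genes; of other lists, the 3 genes with the most peaks in the window, ties included, and up to 5 with none. Alternatives were windows of 10 and 50 kb, −log10 q of at least 5, a fold of at least 4, an overlap of 200 bp and distance from the peak centre. The planned reading of host transcripts in the RNA libraries was not made.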

Additional observations from a re-analysis of the deposited data

How the results depend on the processing

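With 1 ATAC library no replicate could be left out, and every value is a description. No paired analysis was possible because only number 2 occurs in both assays and nothing was compared between them. Of 140 alternative values, 99 stayed near the reported one and 41 moved. Near meant within 1.5-fold for a count or distance and within the 95% Wilson interval for a share. None could change sign, since counts, shares and distances are never negative. The number of members with a peak was 9 in each setting run except a fold of at least 4, where it was 8. The 39 peaks became 20 in windows of 10 kb, 82 in windows of 50 kb and 18 with a fold of at least 4, as wider windows hold more peaks and filters keep fewer. The share of all microRNA genes with a peak, 77.5%, was 66.8% at 10 kb, 87.8% at 50 kb, 72.1% with −log10 q of at least 5 and 70.4% with a fold of at least 4. The share covered by a peak, 10.7%, was 9.15% and 6.12% under the last 2. Added after seeing the data, keeping as many peaks by highest pileup gave 66.2% and 9.2%, and counting microRNA genes within 10 kb of each other once gave 79.3% and 12.2%. The cluster mates with a peak fell from 7 to 1 with a fold of at least 4, since the MIR17 cluster shares 1 peak of 3.94-fold. The median distance of 1468 bp became 2442 bp from peak centres. The lowest pileup in the list was 8.0 tags, and regions below it were not detectable. That limit depends on depth and on the settings of the caller, among them the genome size that sets the background floor.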

Other observations

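The microRNA hairpins with the highest pileup were not among the members; they were picked after their values were seen. MIR12136, on chromosome 1 from 632615 to 632685 within the pseudogene MTCO1P12, lay under a peak of 224.86 tags. The 4 copies of MIR6724 on chromosome 21 had 133.09, 129.99, 128.22 and 121.93 tags; their sequences are nearly alike, and a pseudogene can share reads with its source, so these values are uncertain. MIR3175 in CHD2 followed with 114.75 tags and MIR638 in DNM2 had 96.51. MIR6090, on chromosome 11 from 128522390 to 128522449, lay within ETS1, a transcription factor gene of the ETS family, under a peak of 112.77 tags, with 8 peaks in its window.

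Windows of 50 kb hold more peaks, and the count rose at every member except MIR124-1. No median over all microRNA genes was taken at this width, where 87.8% of them had a peak. MIR126 had 20 peaks, MIR143 and MIR145 had 19 each, MIR221 had 18 and MIR21 had 12, whereas MIR10A and MIR155 had 4, MIR10B 3, MIR17HG 2 and MIR124-1 0.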
